A study of Mus musculus with 2 samples.

Results

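Cells labelled early myeloid were taken from both sorted fractions of *Gata1*- chimeric mouse embryos by a rule on 3 genes. A cell was a member if it held at least 3 spliced UMIs (unique molecular identifiers, each counting 1 captured RNA molecule) of *Spi1* and at least 5 of *Fcer1g* and *Tyrobp* together. The members were thus chosen by the measured counts of these 3 genes, and the rule picked 215 of 18233 cells. Of these, 203 came from the 8981 tdTom+ cells, a share of 2.26% (1.96 to 2.59%), and 12 came from the 9252 tdTom- cells, a share of 0.130% (0.0670 to 0.227%). All intervals of shares, levels and folds given here are exact 95% intervals (Clopper-Pearson for shares, Poisson for levels), and they cover counting error only.

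The tdTom+ fraction descends from 1 male embryonic stem cell clone with a 38 base-pair frameshift in exon 4 of *Gata1*. This clone carried a constitutive tdTomato reporter from a cross of ROSA26tdTomato with C57BL/6. The tdTom- fraction is the wildtype C57BL/6 host of the same 6 pooled embryos, whole and collected at E8.5 (the age label of the tdTom- sample reads E8.6). Each fraction gave 1 library, so the fractions have no replicates, no test between them could be run, and no p-value is given. Clone, sex, strain background, reporter and mutation differ together between the fractions and cannot be told apart.

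Myeloid cells arise in the yolk sac before the liver or marrow make blood, first as macrophages of the primitive wave and then from erythro-myeloid progenitors that bud from haemogenic endothelium. PU.1, the product of *Spi1*, is the transcription factor that drives the myeloid programme and has been reported, though also disputed, to antagonise GATA1, the factor of red cells and megakaryocytes. *Fcer1g* and *Tyrobp* (DAP12) encode small membrane adaptors with an ITAM motif that carry signals of Fc and other immune receptors. *Alox5ap* serves leukotriene synthesis, and *Coro1a* binds the actin cortex of leukocytes.

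Genes that the rule did not use were looked at in both fractions. *Gata1* gave 24 UMIs in 22 of the 203 tdTom+ members and 1 UMI in the 12 host members. Counts of 3' tags need not cover the edited exon, so this does not check the knockout. *Xist*, transcribed only from the inactive X of female cells, reached 3 UMIs in 0 of 203 tdTom+ members, which allows a share of up to 1.48% by the limit of 3 counts used here for a 0 (the exact interval ends at 1.80%), and in 7 of 12 host members (58.3%, 27.7 to 84.8%). In the whole libraries it reached 3 UMIs in 0.534% of tdTom+ and 45.9% of tdTom- cells. *Grb10* is only described, because no reason outside these data is given for a difference, so it is no independent check. It reached 3 UMIs in 1 of 203 tdTom+ members and in 4 of 12 host members (33.3%, 9.93 to 65.1%). In the whole libraries it did so in 1.34% of tdTom+ and 68.2% of tdTom- cells. The cause of the lower share in the host members was not tested. The libraries shared 18 cell barcodes, none of them a member's.

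Depth was similar in the members of both fractions. The tdTom+ members held 4359013 spliced UMIs in all, with a median of 19563 per cell (3489 to 62888) against 17553 in the other tdTom+ cells. The 12 host members held 269880, with a median of 19425 (12189 to 56952) against 15991 in the other tdTom- cells. Mitochondrial UMIs made up a median of 3.03% in tdTom+ members and 2.50% in host members. A count of 0 allows up to 3 UMIs, which is 0.688 CPM (spliced UMIs of a gene over all spliced UMIs of the group, times 1000000) over the tdTom+ members and 11.1 CPM over the host members, so low genes were measured far more precisely in the tdTom+ members. Scrublet, which scores cells against simulated mixtures, called 12 tdTom+ members (5.91%) and 2 host members (16.7%) doublets, against 4.39% and 5.6% of all cells of the 2 libraries. These cells were kept, and values without them are given where they change a result.

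Both parts of the rule cut a continuous range. In the tdTom+ library 542 cells reached 3 *Spi1* UMIs, and 37.5% of them were members. Another 229 of them held no adaptor UMI at all, and 11 stood 1 adaptor UMI short. Just inside the rule stood 17 tdTom+ and 2 host members with exactly 5 adaptor UMIs, and 8 and 1 with exactly 3 *Spi1* UMIs. Just outside it stood 12 tdTom+ and 4 host cells with enough adaptor UMIs but only 2 of *Spi1*. In the host library 23 cells reached 3 *Spi1* UMIs, of which 52.2% were members. Thinned to 10000 UMIs per cell, 1.48% of the tdTom+ and 0.0375% of the tdTom- cells met the rule, and under stricter thresholds of 5 and 10 UMIs 1.51% and 0.0216% did. The plot of single cells by the UMIs of the rule shows both boundaries.

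**Figure D1:**
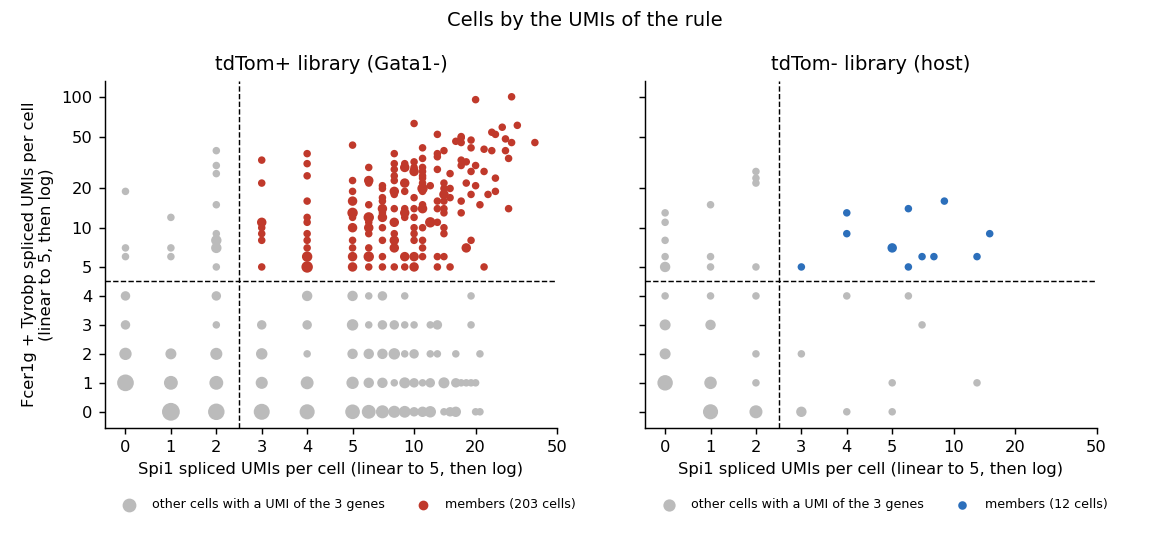
Spliced UMIs of Spi1 (x axis) against those of Fcer1g plus Tyrobp (y axis) per cell, both linear to 5 and log above, for the tdTom+ (left) and tdTom- library (right). Each dot is 1 combination of counts, larger for more cells; dashed lines mark the rule, which holds 203 tdTom+ and 12 tdTom- cells, and a row of 229 tdTom+ cells with at least 3 Spi1 UMIs lies at 0 adaptor UMIs.

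Of the label genes, *Spi1* and *Fcer1g* were found in every member, for *Spi1* by the rule itself. *Spi1* had a median of 9 UMIs per tdTom+ member (3 to 39), and the 12 host members held 3, 4, 4, 5, 5, 6, 6, 7, 8, 9, 13 and 15. *Fcer1g* had a median of 11 UMIs (1 to 44) in tdTom+ and 6.5 (3 to 15) in host members. The ranges overlap, with the host cells within the range of the tdTom+ cells for both genes, and for these genes the rule itself set the lower end. *Tyrobp* was found in 166 of 203 tdTom+ members (median 3, highest 60) and in 9 of 12 host members, none of which held over 3 UMIs. The rule was therefore met through *Fcer1g* in the cells that lack *Tyrobp*.

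*Alox5ap* and *Coro1a* were not part of the rule but come from the same cells that it chose, so their levels are a description. The tdTom+ members had 316 CPM (299.7 to 333) of *Alox5ap*, the host members 208 CPM (157 to 270), and 194 of 203 and 12 of 12 cells held a UMI. The other tdTom+ and tdTom- cells had 4.51 and 2.04 CPM. For *Coro1a*, found in 187 and 11 cells, the levels were 310.4 and 145 CPM, against 3.74 and 2.54 CPM in the other cells. As a background outside the members, 3082 tdTom+ and 3555 tdTom- cells with at least 10 UMIs over 12 neural genes held 1.76 and 1.20 CPM of *Alox5ap*. These neural-list cells are not a clean neural population: *Crabp1* alone gave 72.8% and 65.5% of the list UMIs, 12 mesoderm genes summed to 511 and 414 CPM, and single cells reached 958 and 239 CPM of the 5 label genes. Host cells that met only one side of the rule carried these genes as well. The 11 host cells with at least 3 *Spi1* UMIs but under 5 adaptor UMIs had 138 CPM of *Alox5ap*, in 8 cells, and 30.2 CPM of *Coro1a*, in 5. The 14 host cells with at least 5 adaptor UMIs but under 3 of *Spi1* had 203 CPM of *Alox5ap* and 111 CPM of *Coro1a*.

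Several genes that define finished macrophages, granulocytes and mast cells were at or near 0, while others of these lists were present. Of 30 macrophage genes, 24 had UMIs in the tdTom+ members, 11 of them at least 10, for 804 UMIs in all, and 13 had UMIs in the host members. Of 23 granule genes, 12 and 7 had UMIs. Of 21 mast cell, basophil and eosinophil genes, 7 and 5 had UMIs, 1546 and 29 in all. The tdTom+ sum came mostly from *Kit* (584 UMIs) and *Gata2* (166), both also on the progenitor list, and from *Lmo4*. *Lmo4* gave 171 UMIs in tdTom+ members with and 565 in those without a *Cdh5* UMI. The list summed to 355 CPM in tdTom+ members and 208 CPM in tdTom+ neural-list cells. It was higher, at 695 CPM, in the 339 tdTom+ cells with at least 3 *Spi1* but under 5 adaptor UMIs. Among the macrophage genes, *C1qa*, *Timd4*, *Cd163*, *Ctss* and *Ms4a7* had none in either. *Adgre1*, which encodes F4/80, had 4 UMIs in 2 tdTom+ members. Of the granule list, *Elane*, *Ctsg*, *S100a8*, *S100a9*, *Camp*, *Ngp* and the monocyte gene *Ly6c2* had no UMI in any member. Of the mast cell proteases, *Mcpt1*, *Mcpt4*, *Cma1* and *Tpsb2* were not seen, while *Cpa3*, an early one, had 32 UMIs in 16 tdTom+ members and 1 UMI in a host member. Of the 5 label genes only *Alox5ap* and *Coro1a* lie outside the rule. They too were chosen with earlier results of these data known, so their levels do not test the label. For the host members the label is weaker. Their 18 endothelial and 20 megakaryocyte genes summed to 986 and 722.5 CPM, against 293 CPM of macrophage and 159 CPM of granule genes. In tdTom+ members the same sums were 431, 547, 184 and 878 CPM. These lists share genes, so the sums overlap. Of the 79 macrophage UMIs in host members, 26 were of *Lyve1*, a gene of endothelium as well. Another 15 were of *Pf4*, also on the megakaryocyte list, and 10 of *Lyz2*, also on the granule list.

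Against the other cells of its own library, each member group was compared by log2 fold with 10 CPM added on both sides, over genes with at least 50 UMIs, and a gene was counted as higher or lower at 2-fold. This contrast was fixed by the choice of cells, so the counts describe the profile and test nothing. In tdTom+ members 435 of 13793 genes were higher (3.15%) and 514 lower (3.73%). In host members 420 of 13758 were higher (3.05%) and 749 lower (5.44%). No interval was asked for here. A count of 0 in the host members allows up to 11.1 CPM, so few UMIs can decide whether a gene counts as lower. The counts of the 2 fractions are therefore not compared, and those under other settings are given below. The median over all genes was -0.06 and -0.10 on the log2 scale.

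Most of the measured genes downstream of the ITAM adaptors were raised in both fractions. Of 20 such genes, 18 passed the minimum of UMIs in tdTom+ and 13 in the host comparison, and 13 and 9 were higher, with medians of 1.88 and 1.85 on the log2 scale and none lower. *Rac2*, which acts in leukocyte movement, stood at 352 CPM (334 to 370.0) in tdTom+ and 96.3 CPM (62.9 to 141) in host members, against 7.65 and 2.06 CPM in the other cells. *Ptpn6*, the phosphatase SHP-1, stood at 145 and 122 CPM, and *Was*, which links receptors to actin, at 125 and 96.3 CPM. *Syk*, the kinase that binds phosphorylated ITAMs, was found in 142 of 203 tdTom+ members at 56.0 CPM and in 5 of 12 host members at 33.3 CPM. Of 20 receptors that pair with the adaptors, 6 had no UMI in tdTom+ and 15 none in host members. *Fcgr3*, a low-affinity receptor for IgG, was higher than in other cells in both, at 44.5 CPM in 7 host members, with 79.2 CPM in 133 tdTom+ members. *Trem2* had 1 UMI in all members together, and *Fcer1a* and *Ms4a2*, the partners of *Fcer1g* in the IgE receptor, had none.

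Leukotriene and oxidase genes formed a second group raised in both fractions, 7 of 9 in tdTom+ and 6 of 9 in host members. *Pla2g4a*, the phospholipase that frees arachidonic acid, stood at 84.4 CPM (76.0 to 93.5) in tdTom+ and 137 CPM (96.5 to 189) in host members. *Alox5*, the lipoxygenase served by *Alox5ap*, stood at 25.7 and 25.9 CPM. *Cyba*, a membrane subunit of the phagocyte oxidase, stood at 239.5 CPM in 191 tdTom+ members and 170.4 CPM in all 12 host members. *Cybb*, the catalytic subunit of that oxidase, had 4 UMIs in 2 tdTom+ members and none in the host members, and *Ncf1* had 12 UMIs in 12 tdTom+ members. The *Cybb* level was 0.918 CPM in tdTom+ members, while the count of 0 in the host members allows up to 11.1 CPM.

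Leukocyte cytoskeleton and adhesion genes were higher in 17 of the 18 measured of 22 in tdTom+ members and in 11 of 15 in host members. *Arhgdib* stood at 513 CPM in 202 of 203 tdTom+ members and 293 CPM in all 12 host members. *Laptm5*, a lysosomal membrane protein of blood cells, stood at 206 and 111 CPM. *Itgam* and *Itgal*, integrin chains of mature myeloid and lymphoid cells, had 3 and 6 UMIs in the tdTom+ members and none in the host members. These lists did not set the host members apart from the 14 host cells with enough adaptor but under 3 *Spi1* UMIs. There the ITAM signalling, leukotriene and cytoskeleton lists summed to 772, 763 and 1627 CPM, against 619, 774 and 1126 CPM in host members. In the 18 such tdTom+ cells the sums were 683, 610 and 1011 CPM, against 1022, 866 and 1808 CPM in tdTom+ members.

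Of the 17 myeloid transcription factors, 8 of 14 measured were higher in tdTom+ members than in the other cells and none lower, while in host members 5 of 12 were higher and 2 lower. Among these factors, *Cebpb* and *Cebpd*, basic leucine zipper factors of myeloid cells, were found in both fractions. *Cebpb* stood at 92.0 CPM in 121 tdTom+ members and 77.8 CPM in 6 host members, and *Cebpd* at 63.1 CPM in 99 and 74.1 CPM in 11. *Cebpa*, the factor needed for granulocyte-monocyte progenitors, was found in 56 tdTom+ members with 100 UMIs (22.9 CPM) and in 1 host member with 1 UMI. *Irf8*, a factor of the monocyte lineage, had 55 UMIs in 17 tdTom+ members and none in the host members. At this depth a host level like that of the tdTom+ members, 12.6 CPM, would give about as many UMIs as the count of 0 allows, so no difference in *Irf8* was detectable. *Ikzf1*, a zinc finger factor of blood progenitors, stood at 87.6 and 40.8 CPM.

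Of 15 growth factor and cytokine receptors, 11 had UMIs in the tdTom+ members, and 5 of 11 measured were higher than in the other tdTom+ cells, with 2 of 7 in host members. *Ifngr1*, a chain of the interferon-gamma receptor, was found in 155 and 11 cells, at 111.0 and 107 CPM. *Csf2ra*, a chain of the GM-CSF receptor, was found in 64 tdTom+ members and in 1 host member. *Csf1r*, the receptor for M-CSF that macrophages depend on, had 66 UMIs in 36 of 203 tdTom+ members (17.7%, 12.7 to 23.7%) and 3 UMIs in 3 of 12 host members (25%, 5.49 to 57.2%). After thinning to 10000 UMIs the shares were 9.05% and 8.33%, and in the neural-list cells of the 2 libraries 0.130% and 0.225% held a UMI. The shares of the 2 fractions overlap. *Csf3r*, the G-CSF receptor, was found in 25 and 2 cells, and *Flt3* and *Ccr2* had no UMI in any member. Of the macrophage list, 4 of 15 measured genes were higher in tdTom+ members than in other cells (*Ccl3*, *Pf4*, *Lyz2* and *Csf1r*) and 1, *Dab2*, was lower. In host members 3 of 12 were higher (*Pf4*, *Lyve1* and *Lyz2*).

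Progenitor genes were still present. Of 24, 12 of 23 measured were higher and 2 lower in the members of each fraction than in the other cells of the library. *Kit*, the stem cell factor receptor, was found in 166 of 203 tdTom+ members at 134 CPM (123 to 145) and in 6 of 12 host members at 44.5 CPM (23 to 77.7). *Myb*, a factor of definitive progenitors, stood at 108 and 48.2 CPM, and *Runx1*, which drives blood emergence from endothelium, at 138 and 88.9 CPM. *Cd34*, a surface marker of progenitors and endothelium, was found in 149 tdTom+ members at 204 CPM (191 to 218) and in all 12 host members at 289 CPM (228 to 361). *Lmo2*, the adaptor of the SCL complex, stood at 216 and 311 CPM. Of the 18 endothelial genes, 6 were higher in tdTom+ and 11 in host members than in the other cells, with none lower. Megakaryocyte genes were higher in 10 of 14 and 9 of 15 measured, among them *Pf4* at 32.1 and 55.6 CPM, while *Gp6* and *Tubb1* had no UMI in any member.

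Cell cycle genes did not set the members apart from other cells: of 24 S-phase and 24 G2/M genes, none reached 2-fold in either library. Antigen presentation was represented by *B2m* at 115 and 77.8 CPM, while *Cd74* and *H2-Aa* had no UMI. Of the 16 lymphoid genes, 7 had no UMI in the tdTom+ members.

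Granule genes were higher in 5 of 7 measured of 23 in tdTom+ members and in 3 of 5 in host members, compared with the other cells of each library. *Mpo* (myeloperoxidase) was found in 137 of 203 of them (67.5%, 60.6 to 73.9%) at 119 CPM, and in 35 of the 339 tdTom+ cells with at least 3 *Spi1* UMIs but too few adaptor UMIs, at 7.56 CPM. *Prtn3*, the serine protease of azurophil granules, was found in 125 and 66 of these cells, at 114 and 11.6 CPM. *Srgn*, the proteoglycan core that packs granule proteases, was found in 137 and 69 cells, at 159 and 18.3 CPM. In the neural-list cells 0.357% held an *Mpo* UMI in tdTom+ and 0.0844% in tdTom-. *Mpo* and *Prtn3* were found together in 95 tdTom+ members, with 42 holding only *Mpo*, 30 only *Prtn3* and 36 neither.

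A stretch from the upstream window of *Mpo* and of *Prtn3*, the 250 bases before the RefSeq start, is shown. Both were chosen because they hold the letters GAGGAAGT, a core that ETS factors such as PU.1 are known to bind. Of the 10 genes that led the tdTom+ members over other cells, 5 had upstream windows in the RefSeq table (build GRCm38.p6), with 7 windows. Within these 250 bases, on either strand, GAGGAAGT was found in 2 of these 7 windows (28.6%), 1 of *Mpo* and 1 of *Prtn3*, and in 802 of all 32851 windows (2.44%). AGATAA, the core of a GATA site, was found in none of the 7 and in 9.99% of all windows. The 10 genes were picked from these data, and 7 windows are too few to set their shares against those of all windows. A match describes the letters only, and binding was not measured. The capitals mark the match. The *Mpo* stretch lies on the plus strand at chr11:87793534-87793580, with the match 224 bases before the RefSeq start and 21 bases before a GENCODE exon, where the stretch was ended, and the *Prtn3* stretch on the plus strand at chr10:79879417-79879613, with the match 95 bases before the RefSeq start and 42 bases before a GENCODE exon. In GENCODE *Prtn3* begins further upstream, at 79874476, so its stretch lies between exons inside that longer gene model.
Mpo: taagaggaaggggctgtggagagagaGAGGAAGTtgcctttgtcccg
Prtn3: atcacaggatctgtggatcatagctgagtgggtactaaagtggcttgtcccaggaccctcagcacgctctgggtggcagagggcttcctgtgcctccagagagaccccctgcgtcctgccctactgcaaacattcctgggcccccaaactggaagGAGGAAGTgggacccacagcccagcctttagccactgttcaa

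Compared with those 339 *Spi1*-high tdTom+ cells outside the rule, the tdTom+ members were higher in 244 of 8731 genes (2.79%) and lower in 63 (0.722%), with a median of 0.03 on the log2 scale. The comparison was fixed in part by the rule, which cut on *Fcer1g* and *Tyrobp*. The members were higher in 14 of 17 cytoskeleton, 9 of 13 ITAM signalling and 4 of 8 leukotriene and oxidase genes. They were also higher in 5 of 12 endothelial genes, with a median of 0.91 on the log2 scale, and in 4 of 11 megakaryocyte genes, with none lower in either list. *Csf1r* stood at 15.1 CPM (11.7 to 19.3) against 0.354 CPM in the *Spi1*-high cells, and *Ptpn18*, a phosphatase, at 132 against 13.5 CPM. *Ccl3*, a chemokine, stood at 56.4 against 0.118 CPM, with 1 UMI in the *Spi1*-high cells. *Rgs2*, a regulator of G-protein signalling chosen after its values were seen, stood at 124 against 9.93 CPM.

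Red cell genes ran the other way. The members were lower in 15 of 21 erythroid genes, among them 6 of the 7 globins, and higher in none. *Hbb-bh1*, the main embryonic beta-like globin, stood at 1528 CPM (1492 to 1565) in tdTom+ members, 7574 CPM in the *Spi1*-high cells and 305 CPM in tdTom+ neural-list cells. Per cell, the summed erythroid genes had a median of 900.3 CPM in the members and 11676 CPM in the *Spi1*-high cells. *Klf1*, an erythroid factor, stood at 7.80 against 63.6 CPM. *Gata2*, the GATA factor of progenitors and mast cells, stood at 38.1 CPM (32.5 to 44.3) against 117 CPM, and *Kit* was alike in both, at 134 and 136 CPM. *Plac8*, found in early myeloid progenitors, was more evenly shared, at 421 CPM in members and 219 CPM in the *Spi1*-high cells.

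**Figure D2:**
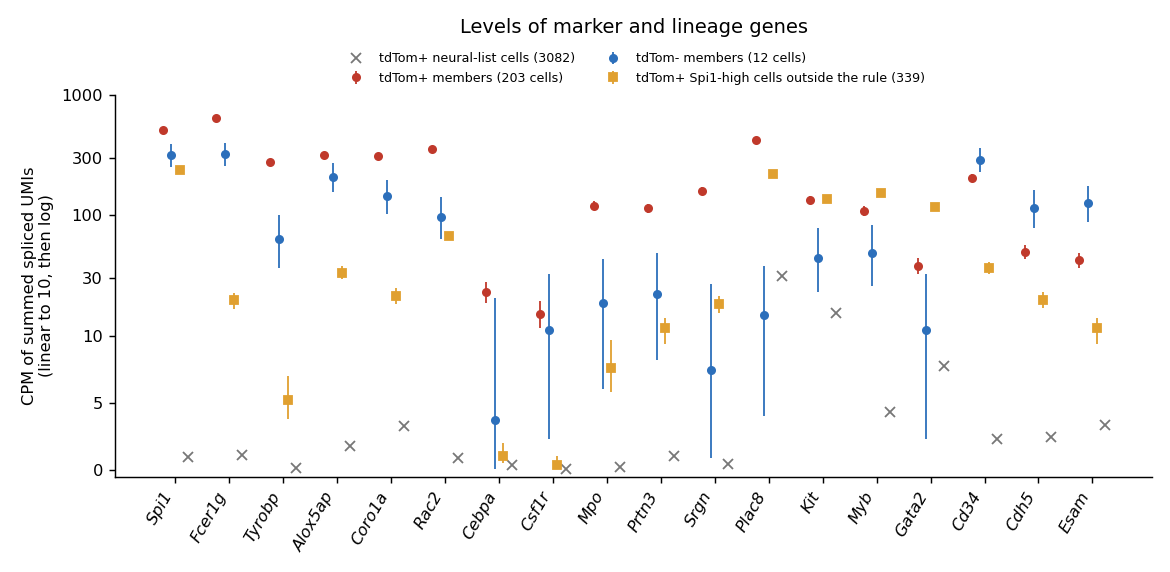
Levels of 18 marker and lineage genes as CPM of summed spliced UMIs (y axis, linear to 10, then log) in tdTom+ members (red), tdTom- members (blue), tdTom+ Spi1-high cells outside the rule (orange) and tdTom+ neural-list cells (crosses); bars are exact 95% Poisson intervals that cover counting error only. For the tdTom+ and tdTom- members in turn, Srgn has 159 and 7.41 CPM and Cdh5 49.3 and 115 CPM.

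Before the members of the 2 fractions are compared, 3 cells that stand apart need naming. The deepest host member, with 56952 UMIs, holds 21.1% of all host member UMIs. It alone gave 66 of the 68 *Etv2*, all 42 *Hoxaas3*, 16 of 18 *Hoxb8*, 23 of 24 *Cdx4* and all 17 *Crabp2* UMIs of the host members. Another host member, with 32651 UMIs or 12.1% of the total, held 904 UMIs of the embryonic alpha-globin *Hba-x*, where the other 11 held 2 to 12, and 10 of the 26 *Lyve1* UMIs. Scrublet called both of these cells doublets. Among the tdTom+ members, 1 cell not called a doublet held 254 of 298 *Actc1* and 178 of 221 *Tnnt2* UMIs, both genes of the heart sarcomere. This cell held 1238 of the 1537 UMIs (80.5%) of 10 cardiac genes in the tdTom+ members. Without it these genes summed to 69.2 CPM in tdTom+ members, against 63.0 CPM in host members.

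Set side by side, 202 of 6789 genes (2.98%) were higher in tdTom+ than in host members and 116 (1.71%) were lower, at 2-fold with an interval that excludes 0. The median over all genes was 0.01 on the log2 scale. With no minimum of UMIs, 202 were higher and 200 lower of 14456. With stricter thresholds, which leave 2 host cells, 63 were higher and 154 lower of 5723. The balance of higher and lower genes thus depends on these settings, and no result is drawn from it. Without the doublet calls, with 191 against 10 cells, 159 (2.48%) were higher and 127 (1.98%) lower of 6405. The host side rests on 12 cells of 1 library, and nothing but counting error enters the intervals.

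The granule list had a median of 2.06 on the log2 scale, with 4 of 6 measured genes of 23 higher in tdTom+ members and none lower. The minimum of 50 UMIs over both groups was met mainly through the tdTom+ members, with 3826 granule UMIs against 43 in host members. A granule gene low in tdTom+ members could hardly be measured, so these values describe the 6 genes only. Without doublet calls the counts were the same and the median was 1.72. *Plac8* had a median of 4 UMIs per tdTom+ member (0 to 92) and was found in 165 of 203, while the host members held 2, 1, 1 and otherwise 0. The tdTom+ level of 421 CPM against 14.8 CPM gives a log2 fold of 4.83 (3.47 to 6.71), and 4.76 without doublet calls. With looser thresholds and 10 CPM added it went from 4.12 to 2.24. In neural-list cells the same comparison, with 10 CPM added, gave 0.45. *Srgn* had a median of 2 UMIs (0 to 29) in tdTom+ members, and 2 host members held 1 UMI each. Its log2 fold was 4.42 (2.56 to 7.47), and with 10 CPM added it went from 3.28 to 2.16 with looser thresholds.

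*Mpo* and *Prtn3* were each found in 3 host members, with 5 and 6 UMIs in all. Their log2 folds were 2.69 (1.46 to 4.32) and 2.36 (1.23 to 3.81), and 2.18 and 1.85 without doublet calls. Each of these 4 genes thus had no UMI in at least 9 of the 12 host members, and the host cells that held one lie within the range of the tdTom+ cells. *Mpo* and *Prtn3* each had a median of 1 UMI per tdTom+ member, so a 0 in a single host cell does not show absence. *Lyz2*, the lysozyme of macrophages and neutrophils, did not pass 2-fold: it was found in 63 tdTom+ and 6 host members, with a log2 fold of -0.80 (-1.74 to 0.31).

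Other genes higher in tdTom+ members came from several groups. Of these, *Ccl3*, *Cdkn1a* and *Fgf3* had no host UMI and met the minimum of 50 UMIs through the tdTom+ members alone. The host members held 269880 spliced UMIs against 4359013. A gene at a like CPM in host members only would not have met that minimum, so such genes could hardly appear on the host side. *Emp3*, a membrane protein, was found in 161 of 203 tdTom+ members and in 1 host member with 4 UMIs, with a log2 fold of 3.34 (1.98 to 5.22). *Mt1*, a metallothionein, was found in 159 and 4 cells, with a log2 fold of 2.91 (1.68 to 4.54). *Ccl3* had 246 UMIs in 33 tdTom+ members and none in the host members, at least 5.08-fold higher if the host members are taken to hold 3 UMIs, the floor for a 0. These UMIs lay in 33 of 203 cells, up to 31 in 1 cell, and neither the floor nor the interval takes account of such clustering. The exact interval of its log2 fold starts lower, at 2.04. With 10 CPM added its log2 fold went from 2.73 to 1.19 with looser thresholds, and to 3.07 with stricter ones, where 2 host cells were left and the interval no longer excluded 0. *Cdkn1a*, the cell cycle inhibitor p21, and *Fgf3*, a growth factor, were found in 53 and 58 tdTom+ members and in no host member, at least 4.21-fold and 3.90-fold higher against the same floor, with exact log2 intervals that start at 1.76 and 1.65. With looser thresholds the fold of *Cdkn1a*, with 10 CPM added, was 0.17 on the log2 scale. *Kit* had a log2 fold of 1.59 (0.78 to 2.55). *Itga4*, the alpha4 integrin, was found in 119 and 3 cells, with a log2 fold of 2.57 (1.0 to 4.85).

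Of the 5 label genes, 2 were higher in tdTom+ members at 2-fold, with the same rule having set a floor for *Spi1* and for the sum of *Fcer1g* and *Tyrobp* in both fractions. *Tyrobp* had a log2 fold of 2.12 (1.44 to 2.90) and *Coro1a* of 1.10 (0.64 to 1.60). *Fcer1g* with 0.99 (0.68 to 1.32), *Spi1* with 0.70 (0.39 to 1.03) and *Alox5ap* with 0.61 (0.22 to 1.02) did not pass 2-fold. With looser thresholds and 10 CPM added, *Tyrobp* had 0.72 and *Coro1a* 0.76, and without doublet calls *Coro1a* had 0.83, all short of 2-fold. *Rac2* had a log2 fold of 1.87 (1.31 to 2.49). Of the cytoskeleton list, 7 of 17 genes were higher, and without doublet calls 4 were higher and 1, *Plek*, was lower. No leukotriene or oxidase gene passed 2-fold either way, and *Pla2g4a* had a log2 fold of -0.70 (-1.19 to -0.17). The S-phase and G2/M lists held no gene past 2-fold, and without doublet calls 1 S-phase gene was lower and 1 G2/M gene higher of 24 each.

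Part of the endothelial list was higher in host members. Of 12 measured of 18, 6 were lower in tdTom+ members and none higher, with a median of -0.92 on the log2 scale, and without doublet calls 3 of 10 were lower. *Cdh5* (VE-cadherin) was found in 72 of 203 tdTom+ members, while the host members held 0, 0, 1, 1, 2, 2, 3, 3, 3, 3, 4 and 9 UMIs. The levels were 49.3 and 115 CPM, a log2 fold of -1.22 (-1.77 to -0.63). *Esam*, an adhesion molecule of endothelium and platelets, was found in 69 tdTom+ members and in all 12 host members, with a log2 fold of -1.58 (-2.11 to -1.0). *Plvap* had a log2 fold of -2.08 (-2.74 to -1.36). Single host cells weigh on both: the highest held 11 and 8 of the 34 *Esam* UMIs, and 7 and 6 of the 24 *Plvap* UMIs. Without doublet calls the endothelial list went from 266 to 152 UMIs in host members, or from 986 to 843 CPM. In tdTom+ members it then stood at 436 CPM. *Kdr*, the main VEGF receptor, had -1.08, but -0.20 (-0.82 to 0.49) without doublet calls. The deepest host member, among the cells then left out, held 27 of its 59 host UMIs.

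Further genes were lower in tdTom+ members beyond the endothelial list. *Lyve1*, of lymphatic and yolk sac endothelium and some macrophages, was found in 19 and 6 cells, with a log2 fold of -3.10 (-3.81 to -2.35) and -2.74 without doublet calls. The 6 host cells held 1, 1, 1, 2, 10 and 11 *Lyve1* UMIs, the 10 in the globin-rich doublet call. The value without doublet calls therefore rests mostly on the 1 host cell with 11. *Itga2b* (CD41), of early blood progenitors and megakaryocytes, was found in 86 tdTom+ and 11 host members, with a log2 fold of -1.69 (-2.24 to -1.11). *Clu* was found in 33 and 8 cells, with -2.43 (-3.27 to -1.51), and the uncharacterised gene *AC113508.1* in 48 and 11 cells, with -2.23 (-2.79 to -1.62). *Rab27b*, a GTPase of platelet granules, had -1.57 (-2.23 to -0.84). *Etv2* is not among these, since its log2 fold went from -3.73 to 0.71 (-1.20 to 3.78) without doublet calls.

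**Figure D3:**
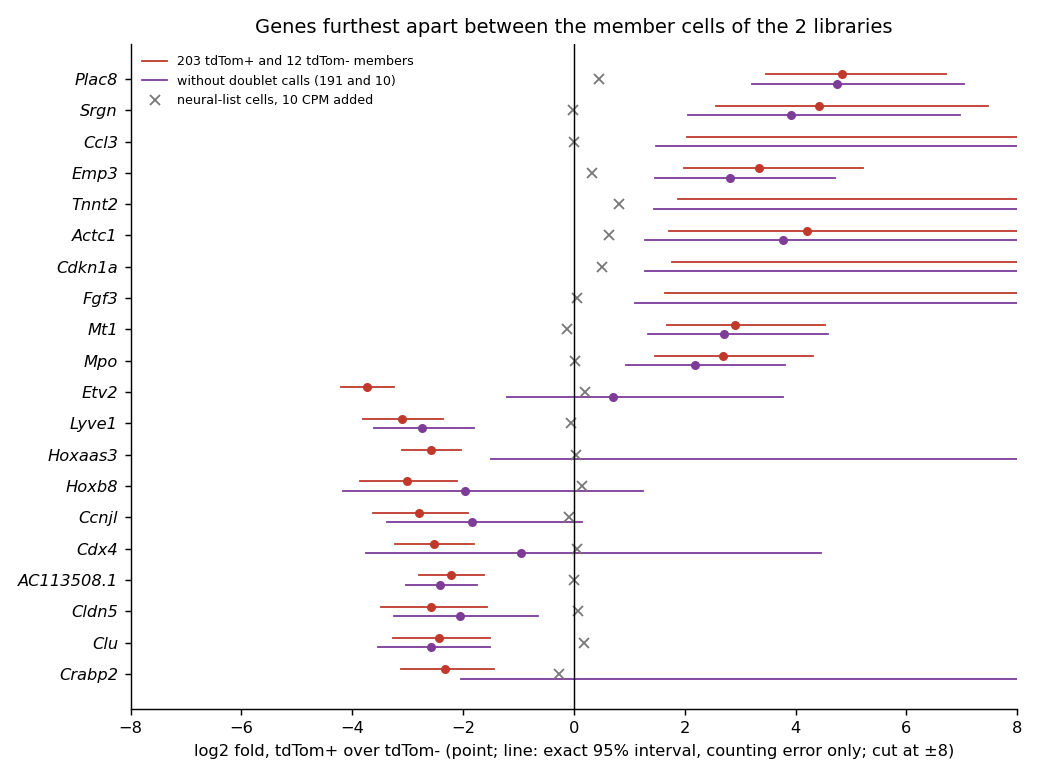
Log2 fold of tdTom+ over tdTom- members (x axis) for the 10 genes furthest apart each way, with exact 95% intervals that cover counting error only, cut at 8 either way; red is all 203 and 12 members, purple is without doublet calls, and crosses are the neural-list cells with 10 CPM added. Plac8 stays near 4.8 in both, while Etv2 goes from -3.73 to 0.71.

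Globin UMIs of the host members were few apart from 1 cell. The other 11 cells held 1 to 7 *Hbb-bh1* UMIs, and the globin-rich cell held 491. Summed over 7 globins, these 11 cells had a median of 727 CPM per cell, against 807 CPM per host neural-list cell, and 3 of the 11 lay above that median. In tdTom+ members *Hbb-bh1* ranged from 0 to 597 UMIs per cell with a median of 3, and its group level was above that of the tdTom+ neural-list cells. The log2 fold between the fractions was -0.39 (-0.51 to -0.26) with all members and 2.86 (2.42 to 3.33) without doublet calls, so no direction is given for it.

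The tdTom+ members varied among themselves along an endothelial and a granule side. The following splits were chosen after these values were seen, and they describe the cells without a test. Across the 203 cells, which share 1 library, Spearman's correlation between the summed endothelial and granule levels per cell was -0.50, between *Cdh5* and *Esam* 0.57 and between *Cdh5* and *Plac8* -0.49. The correlation of *Cdh5* with spliced UMIs per cell was 0.26. The endothelial list had a median of 279 CPM per tdTom+ member and 823 CPM per host member, and the granule list 632 and 152 CPM. The host members lie toward high endothelial and low granule levels in the plot, a part of it that tdTom+ members also take.

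**Figure D4:**
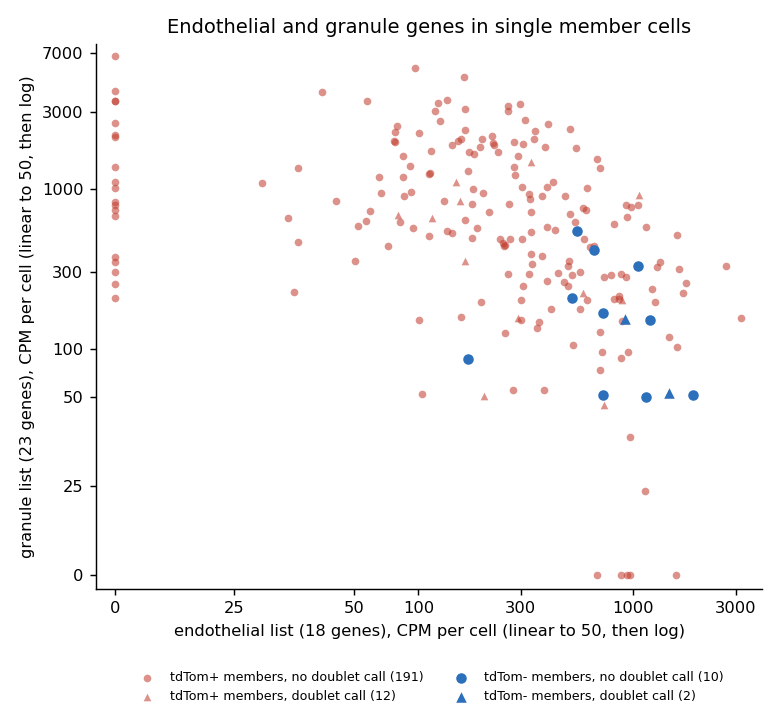
Summed endothelial list (18 genes, x axis) against summed granule list (23 genes, y axis) per member cell in CPM, both linear to 50, then log; red is tdTom+, blue is tdTom-, triangles are doublet calls. The median tdTom+ cell has 279 and 632 CPM, and the median tdTom- cell 823 and 152 CPM.

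The 72 tdTom+ members with a *Cdh5* UMI, deeper with a median of 21482 spliced UMIs against 17922 in the other 131, held more of other endothelial genes. *Esam* stood at 85.3 against 13.1 CPM, *Plvap* at 45.5 against 4.62 CPM, *Kdr* at 159 against 66.2 CPM and *Cd34* at 301 against 138 CPM. They held less of *Plac8*, at 165 against 595 CPM, of *Srgn*, at 72.8 against 217 CPM, of *Prtn3*, at 55.1 against 154 CPM, and of *Hbb-bh1*, at 461 against 2250 CPM. *Spi1* stood at 420 against 572 CPM and *Fcer1g* at 504 against 724 CPM. Still, 44 of the 72 held an *Mpo* UMI.

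Only members with a *Cdh5* UMI, 72 tdTom+ and 10 host cells, were then compared between the fractions. In them 101 of 4720 genes were higher in tdTom+ members and 41 lower. *Plac8* had a log2 fold of 3.72, *Srgn* of 3.12, *Mpo* of 2.59 and *Prtn3* of 2.13. *Kit* had 1.36 and *Rac2* 1.11. *Esam* had -0.65, *Plvap* -1.08 and *Lyve1* -2.16, and *Cd34* turned to 0.31 (-0.08 to 0.73). The 10 host cells include both doublet calls, whose part in these values was not tested.

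A second split was made by *Csf1r*, and it overlaps the first: 13 of the 36 cells with a *Csf1r* UMI also held *Cdh5*. These 36 cells were as deep as the other 167, at medians of 19770 and 19350 spliced UMIs. *Irf8* stood at 59.6 against 1.70 CPM, and 11 of the 17 cells with an *Irf8* UMI were among the 36. *Ccl3* stood at 211 against 20.6 CPM, *Ptprc* (CD45) at 43.8 against 6.22 CPM and *Lsp1*, a leukocyte actin-binding protein, at 133 against 28.3 CPM. The 3 genes *Irf8*, *Ccl3* and *Ptprc* were found in 11, 15 and 16 of the 36 cells, so a minority carries each of these levels. *Cebpd* stood at 155 against 41.8 CPM, *Cebpb* at 179 against 71.8 CPM and *Tyrobp* at 636 against 190 CPM. All 6 cells with *Cx3cr1*, the fractalkine receptor of macrophages, were among them.

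Some progenitor genes and several red cell genes were lower in these 36 cells. *Myb* stood at 69.3 against 117 CPM, *Kit* at 71.8 against 148 CPM, *Gata2* at 15.8 against 43.3 CPM, *Car2* (carbonic anhydrase 2) at 107 against 430.3 CPM and *Hbb-bh1* at 212 against 1834 CPM. *Fgf3* stood at 1.22 against 53.2 CPM. *Cd34* ran the other way, at 272 against 188 CPM (log2 fold 0.54, 0.31 to 0.76), and *Runx1* at 146 against 136 CPM had an interval that holds 0 (-0.20 to 0.40). The whole progenitor list summed to 1516 against 1718 CPM. The *Csf1r* cells did not separate from the granule cells: 30 held both a *Csf1r* and an *Mpo* UMI, 6 only *Csf1r*, 107 only *Mpo* and 60 neither. *Mpo* stood at 137 and 115 CPM with an interval of the log2 fold from -0.06 to 0.56.

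**Figure D5:**
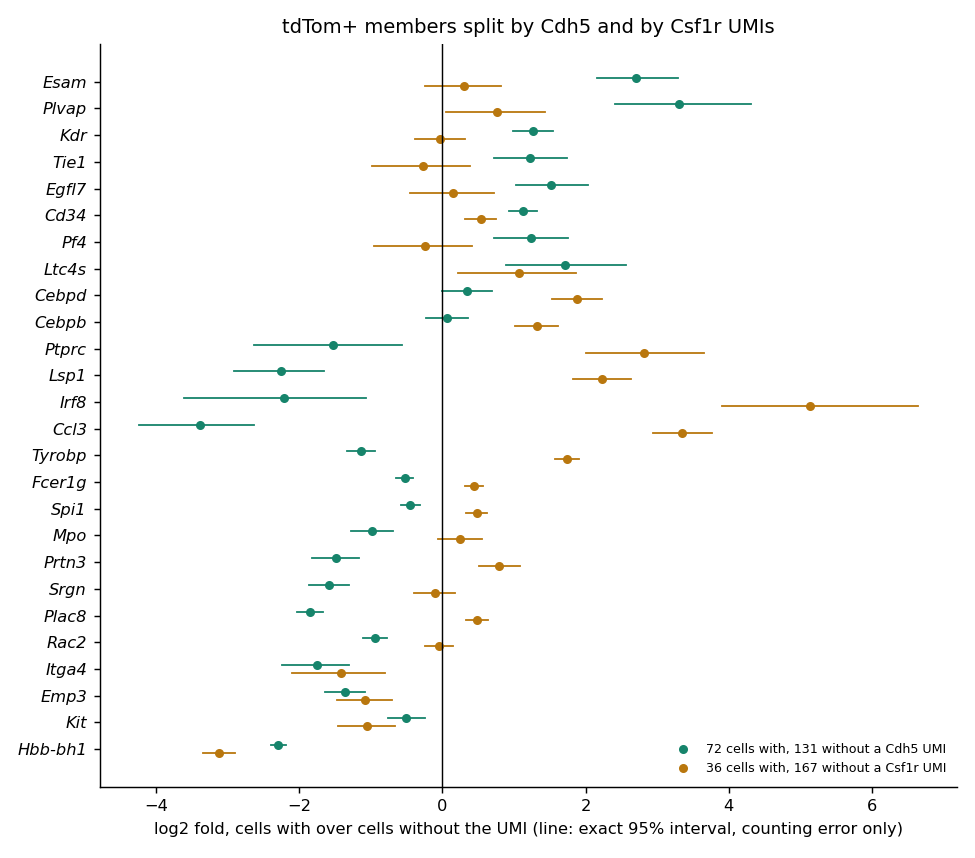
Log2 fold (x axis) of tdTom+ members with over those without a Cdh5 UMI (green, 72 and 131 cells) and with over those without a Csf1r UMI (brown, 36 and 167 cells), for 26 genes; lines are exact 95% intervals that cover counting error only. Irf8 and Ccl3 are higher in the Csf1r cells and lower in the Cdh5 cells, and Hbb-bh1 is lower in both.

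The rule did not use the unspliced counts. The unspliced shares of *Spi1* and *Fcer1g* nevertheless depend on it, because they are taken over spliced UMIs on which the rule set a floor. Unspliced UMIs made up 12.8% of the spliced and unspliced UMIs of tdTom+ members and 11.1% of those of host members. *Spi1* was unspliced in 5.79% (4.89 to 6.81%) in tdTom+ and 3.41% (0.709 to 9.64%) in host members, which overlap. *Fcer1g* was at 1.04% and 2.27%. *Runx1* was mostly unspliced in both, at 78.2% (76.6 to 79.7%) and 84.1% (77.3 to 89.5%). Of *Gata1*, 36 of 60 UMIs in tdTom+ members were unspliced, a share of 60% (46.5 to 72.4%). The share was 54.3% (49.6 to 59.0%) in the *Spi1*-high tdTom+ cells and 53.4% (45.0 to 61.6%) in tdTom+ neural-list cells, against 10.6% (7.77 to 14.0%) in host neural-list cells. The host members held 1 spliced and 0 unspliced *Gata1* UMIs, so the members of the 2 fractions cannot be compared for it.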

How the data were processed

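Single-cell libraries were made with 10x Chromium v3 chemistry. Per the labels and the methods, the authors used Cell Ranger 3.0.2 for mapping (mm10), told cells from empty droplets with emptyDrops, removed cells of low totals or high mitochondrial share by a mixture model, and took spliced and unspliced molecules from velocyto. They also marked doublets, and kept fewer cells with a cell type than the tables hold, so members can include cells that the study left out. The deposited tables hold raw UMI counts per cell and gene (29453 genes) with no normalization, and the deposited quality metrics hold the percent of mitochondrial UMIs per cell. The rule and all levels used spliced counts. The members and the gene lists were chosen with earlier results of these data known.

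For each group of cells, a gene's spliced UMIs were added up and expressed as CPM. Log2 folds have exact conditional 95% intervals. A gene was counted at 2-fold with 10 CPM added, over genes with at least 50 UMIs, and between the fractions also with an interval that excludes 0. Against 0 UMIs a bound used 3 counts over the group. Cells are not replicates, so no test was run. The study's Wilcoxon test over cells was not used.

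Named genes are members of the lists for lineage, adaptor signalling and progenitor roles, the 10 genes furthest apart each way between the fractions, and the 10 furthest above the other cells of each library. *Rgs2*, the fraction check *Xist* and *Grb10* fall outside this. The neural-list cells held at least 10 UMIs over 12 neural genes and under 3 of *Spi1*. Between the fractions, genes set apart in neural-list cells were left out of the 10. Alternatives were other thresholds, thinning, doublet removal, adding unspliced counts, other pseudocounts and minimums, and subtracting the neural fold. Doublets were called by Scrublet within each library at an expected rate of 6%. For shares, cells were thinned to 10000 spliced UMIs, leaving out 4 tdTom+ and 0 host members. Exact folds were checked on simulated counts drawn with counting error only, which the intervals themselves assume. That check does not cover UMIs clustered in single cells. Python 3.11.15, numpy 2.4.6, scipy 1.17.1, pandas 2.3.3, scanpy 1.11.5 and matplotlib 3.10.9 were used. Upstream sequence came from RefSeq windows on GRCm38.p6, shortened at the first GENCODE exon.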

Additional observations from a re-analysis of the deposited data

How the results depend on the processing

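The share of tdTom+ members moved from 2.26% to 2.77% with looser thresholds (2 and 3 UMIs), 1.51% with stricter ones (5 and 10 UMIs) and 1.48% after thinning, and that of tdTom- members from 0.130% to 0.216%, 0.0216% and 0.0375% in turn. Between the fractions, genes higher in tdTom+ members went from 202 to 63 with stricter thresholds, which leave 2 host cells, and to 101 with only *Cdh5* cells. Genes lower went from 116 to 184 with 1 CPM added, 200 with no minimum of UMIs, 66 with at least 100 UMIs and 41 with only *Cdh5* cells. With 1 CPM added in place of 10, members against other cells gave 993 higher and 1995 lower in tdTom+, 1198 and 3700 in tdTom-, and 550 and 174 against *Spi1*-high cells. Without doublets, 1205 genes were lower in host members.

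Values with 10 CPM added reversed for 4 genes. *Etv2* gave 1.49 with stricter thresholds and 0.41 without doublets, and *Hoxaas3* 1.72 with stricter thresholds. *Cd34* gave 0.30 with only *Cdh5* cells. *Hbb-bh1* gave 0.20 with looser and 2.36 with stricter thresholds, 2.81 without doublets, 0.16 by the mean of single cells, 2.86 without the globin-rich cell, and 1.17 and 1.27 after subtracting the neural fold with all 12 genes and without *Crabp1*. The settings with only *Cdh5* cells, without the globin-rich cell, without *Crabp1* and the settings against *Spi1*-high cells were chosen after seeing the data. For 32 genes, 330 of 357 alternatives kept direction and side of the threshold, 15 fell short of it, 1 newly passed it and 11 reversed. The cause was not tested, except that both host doublet calls carry most UMIs of *Etv2*, *Hoxaas3* and *Hbb-bh1*. Each fraction has 1 library, so leaving out a replicate was not possible, and the spread between embryos is unknown. No paired analysis was possible because the result comes from no test.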

Other observations

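Cells with enough adaptor UMIs but under 3 *Spi1* UMIs were left outside the rule, 18 in the tdTom+ and 14 in the tdTom- library, and they were looked at after the members' values were seen. In the 18 tdTom+ cells *Fcer1g* stood at 511 CPM, *Alox5ap* at 180.4 CPM, *Coro1a* at 145 CPM and *Kit* at 104 CPM. The 14 host cells were of very different depth, from 547 to 43338 spliced UMIs. In them *Rab27b* stood at 347 CPM (72 UMIs in 10 cells) and *Itga2b* at 179 CPM (37 UMIs in 10 cells), both genes of megakaryocytes and platelets. *Plek*, a substrate of protein kinase C in platelets and leukocytes, stood at 203 CPM and the platelet glycoprotein gene *Gp5* at 62.7 CPM. Lists of other myeloid genes were present too: 198 UMIs of the macrophage list (956 CPM, up to 37264 CPM in 1 cell), 103 of the granule list (497 CPM, up to 21070 CPM) and 443 of the antigen presentation list (2138 CPM, up to 81982 CPM). *Mpo* had no UMI in these 14 cells and *Kit* 4 UMIs. *Gata1* gave 13 UMIs in 6 of the host cells and 4 UMIs in 4 of the 18 tdTom+ cells.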
